A study of Arabidopsis thaliana with 12 samples.

Results

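Polycomb and Trithorax group proteins keep developmental genes silent or active through cell divisions. In plants, Polycomb repressive complex 2 (PRC2) places the repressive mark H3K27me3 on histone H3. LHP1 binds that mark, and Trithorax group proteins counter the repression, in part by methylating H3K4. In Arabidopsis flowers the best known target of this balance is the organ identity gene AGAMOUS (AG), which PRC2 keeps off in leaves and which ULTRAPETALA1 and ATX1 help to switch on. The 10 genes described here are CLF, SWN, EMF2, VRN2, FIE and MSI1 for PRC2 subunits, LHP1, and ATX1, ULT1 and ULT2 on the Trithorax side. They were chosen by gene identifier, out of 33559 identifiers in the expression table, and all 10 had a value.

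RNA was measured by stranded poly(A) sequencing in 4 groups of Arabidopsis thaliana, all in the Landsberg erecta background. Rosette leaves came from wild-type plants that were already flowering. Day-0 and day-2 apices came from the ap1 cal 35S::AP1-GR line, in which loss of APETALA1 and CAULIFLOWER leaves masses of inflorescence-like meristems. A fusion of APETALA1 to a glucocorticoid receptor domain is driven there by the constitutive 35S promoter and is activated by dexamethasone. Day-0 apices were untreated, and day-2 apices were taken 2 days after 10 µM dexamethasone. Since the labels give no mock-treated group, dexamethasone and the passage of time cannot be told apart. Inflorescences were whole main inflorescences of wild-type plants without flowers older than stage 12. Each group has 3 libraries, but the deposited table gives 1 merged value per gene and group, so the spread between libraries is unknown and no difference below has a replicate check or a test.

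Levels are FPKM, that is, fragments counted relative to transcript length and sequencing depth, so levels of different genes can be set side by side. A difference is log2(FPKM + 1) in the first group minus that in the second, which understates the difference of low genes. A gene is called higher or lower when this difference reaches 1 and the higher group has at least 5 FPKM. Of all identifiers, 22289 reached 1 FPKM in at least 1 group and were compared. All 10 genes passed that filter, ULT2 only through its level in inflorescences, so its difference there was in part fixed by the filter. "Fold" is the ratio of the FPKM values themselves.

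The labelled tissues were checked on marker genes. The 5 shoot meristem markers summed to 409 and 431 FPKM in day-0 and day-2 apices, while leaves had 2.81 FPKM and inflorescences 76.0 FPKM. These near-equal sums hide opposite differences. TFL1 went from 82.4 FPKM at day 0 to 13.7 FPKM at day 2 and CUC1 from 19.7 to 62.6 FPKM. STM, KNAT1 and CLV3 were also higher at day 2. CLV3 was no higher in inflorescences than in leaves, at 0.077 FPKM in both. The 4 flower markers summed to 3.88 FPKM in leaves and, from day 0 through day 2 to inflorescences, to 26.3, 390.5 and 604 FPKM. Markers of anther and pollen (5 genes) summed to 4209 FPKM in inflorescences and to at most 2.41 FPKM elsewhere, and the 3 carpel and ovule markers to 69.1 FPKM in inflorescences and at most 4.16 FPKM elsewhere. The leaf markers summed to 12846 FPKM in leaves and 12709 FPKM in inflorescences. That leaf sum lacks the small Rubisco subunit gene RBCS1A, which the table lists at 0 in leaves, so a listed 0 may be a failed estimate. None of the 10 genes is listed at 0 in any group. The reference gene PP2AA3 stood between 38.2 and 40.6 FPKM in all 4 groups. The 3 markers of dividing cells, PCNA1, CYCB1;1 and KN, summed to 9.36 FPKM in leaves, 290.3 and 367 FPKM in the apices and 154 FPKM in inflorescences. In whole tissue, fewer cells of a type and less RNA per cell cannot be told apart. The part of the share of dividing or meristem cells in the differences below was not tested.

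**Figure D1:**
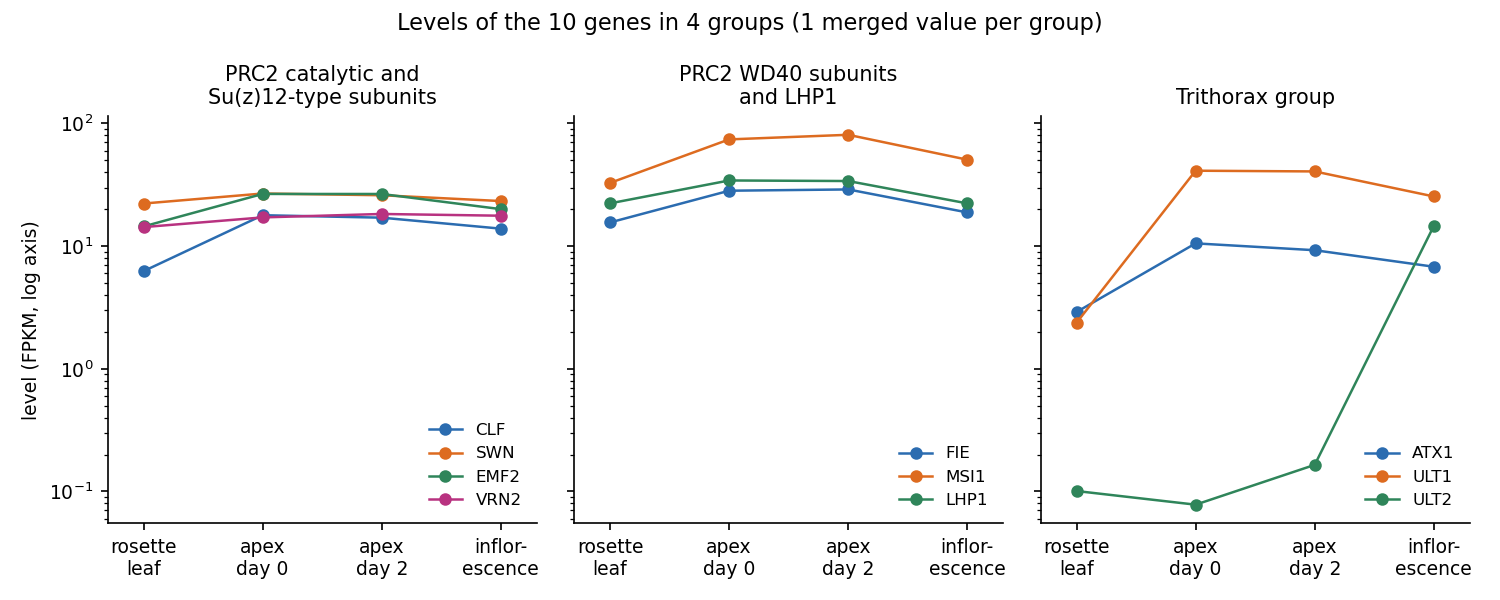
FPKM (log axis) of the 10 genes in the 4 groups, 1 merged value per group, with lines only to guide the eye. The PRC2 genes and LHP1 stand between 6.25 and 80.9 FPKM everywhere, ULT1 is at 2.37 FPKM in leaves and 41.2 FPKM in day-0 apices, and ULT2 exceeds 1 FPKM in inflorescences only.

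The catalytic subunits of PRC2 differed in how tissue-dependent they were. CLF (AT2G23380), the H3K27 methyltransferase that represses AG in leaves, stood at 6.25 FPKM in leaves, 17.9 FPKM at day 0, 17.1 FPKM at day 2 and 13.9 FPKM in inflorescences. CLF was therefore lowest in leaves and highest at day 0, a 2.86-fold range. Its paralog SWN (AT4G02020), which acts partly in its place, stood at 22.3, 26.9, 26.0 and 23.3 FPKM in the same order. SWN spanned only a 1.21-fold range and was the higher of the pair in every group. The third enzyme, MEA, which works in the female gametophyte and endosperm, was listed at 0 at day 0 and reached at most 0.146 FPKM, in inflorescences. CLF made up 21.9% of the summed level of the 3 enzymes in leaves and 40.0%, 39.6% and 37.2% in the other groups, in the same order. Such shares are taken within a group and do not depend on how groups are scaled to each other.

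The Su(z)12-type subunits, which set alternative PRC2 complexes apart, showed a milder version of the same split. EMF2 (AT5G51230), whose loss lets seedlings skip rosette growth, stood at 14.5 FPKM in leaves, 26.6 FPKM at both day 0 and day 2, and 20.0 FPKM in inflorescences. EMF2 was thus 1.84-fold higher in day-0 apices than in leaves. VRN2 (AT4G16845), required for the stable silencing of FLC after cold, stood at 14.3, 17.2, 18.3 and 17.7 FPKM. VRN2 and EMF2 were nearly equal in leaves, where EMF2 held 50.3% of the summed level of EMF2, VRN2 and FIS2, and EMF2 held 60.8%, 59.3% and 53.0% in the other groups. FIS2, which acts in the seed, did not exceed 0.0580 FPKM. SWN and VRN2 varied least among the 10 genes, with highest-to-lowest ratios of 1.21 and 1.28.

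The WD40 subunits are shared by the PRC2 complexes. FIE (AT3G20740), which has no paralog in the genome, stood at 15.6 FPKM in leaves, 28.3 FPKM at day 0, 29.0 FPKM at day 2 and 18.8 FPKM in inflorescences. Its profile over the 4 groups was closest to that of EMF2 among all pairs of the 10 genes, with a root mean square difference of 0.08 on the log2 scale after centring each gene on its own mean. MSI1 (AT5G58230), which is also a subunit of the chromatin assembly factor that loads histones at replication, was the most abundant of the 10 in every group. It stood at 32.8, 74.2, 80.9 and 50.7 FPKM, which in day-2 apices placed it above 89.3% of the genes with at least 1 FPKM. MSI1 exceeded FIE in every group, least in leaves (2.1-fold) and most at day 2 (2.79-fold). LHP1 (AT5G17690), the chromodomain reader of H3K27me3, stood at 22.3 FPKM in both leaves and inflorescences and at 34.3 and 34.0 FPKM in day-0 and day-2 apices. As deposited, LHP1 was therefore equally low in leaves and inflorescences and highest in the apices.

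**Figure D2:**
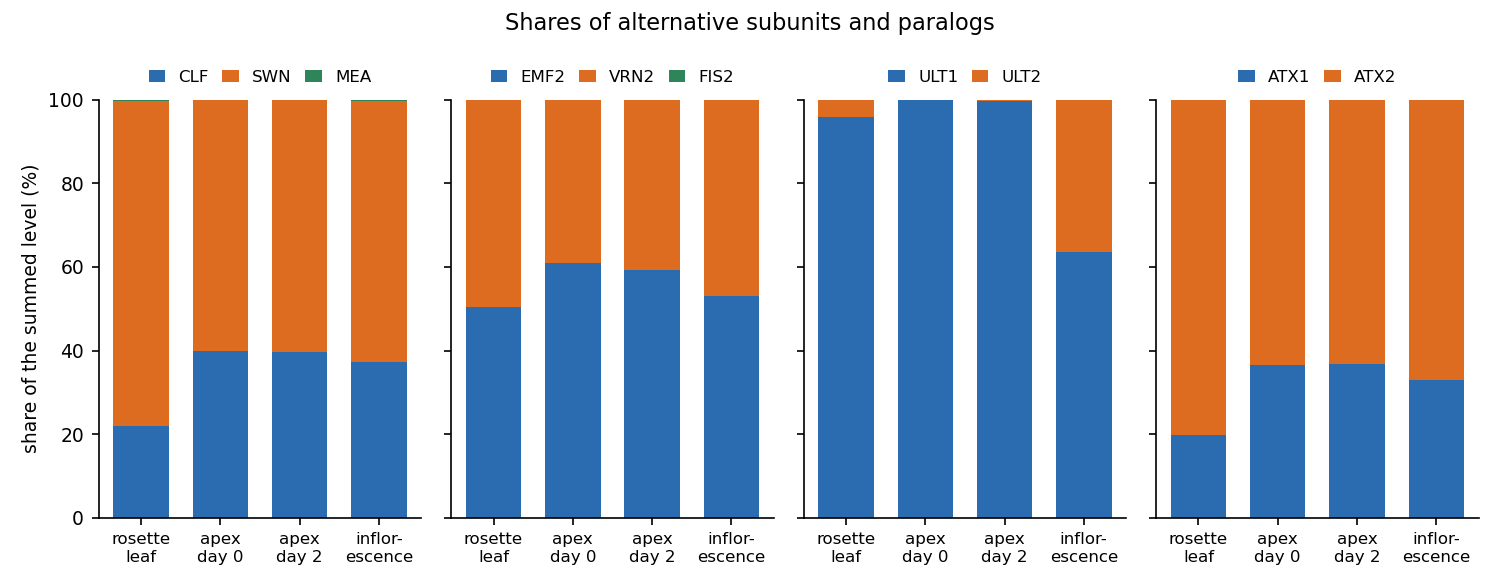
Share (%) of the summed FPKM of each set of related genes in the 4 groups, 1 merged value per gene and group. CLF rises from 21.9% in leaves to 40.0% at day 0, and ULT2 makes up 36.5% of the ULT sum in inflorescences but 0.189% at day 0.

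On the Trithorax side the range of levels was wider. ATX1 (AT2G31650), an H3K4 methyltransferase, was the lowest of the 10 in day-0 and day-2 apices apart from ULT2, at 10.5 and 9.27 FPKM, and stood at 2.90 FPKM in leaves and 6.80 FPKM in inflorescences. Its share of the summed level of ATX1 and its paralog ATX2 was 19.7% in leaves and 36.5%, 36.7% and 32.9% in the other groups. In its profile ATX1 lay nearest to CLF among the 10, at a root mean square difference of 0.09, and so did CLF to ATX1. Both genes showed the order day 0, day 2, inflorescence, leaf, as did SWN, EMF2 and ULT1, although EMF2 was nearly equal at day 0 and day 2.

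ULT1 and ULT2 encode closely related SAND-domain proteins that limit meristem size. They had the widest ranges of the 10 genes and the least alike profiles. ULT1 (AT4G28190) stood at 2.37 FPKM in leaves, 41.2 FPKM at day 0, 40.7 FPKM at day 2 and 25.4 FPKM in inflorescences. It was thus low in leaves, above only 9.20% of the genes with at least 1 FPKM there, and above 76.5% of them in day-0 apices. ULT2 (AT2G20825) stood at 0.101 FPKM in leaves, 0.0781 FPKM at day 0, 0.165 FPKM at day 2 and 14.6 FPKM in inflorescences. ULT2 was near 0 in 3 groups, including the meristem-rich apices in which ULT1 was highest, and reached 0.57 times the level of ULT1 in inflorescences. The summed level of both was 2.47 FPKM in leaves but 41.3, 40.8 and 40.0 FPKM in the other groups. ULT1 alone was 1.6-fold lower in inflorescences than at day 2. Anther, pollen, carpel and ovule markers were also found mainly in inflorescences, as given above, and which floral tissue carries ULT2 was not tested.

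**Figure D3:**
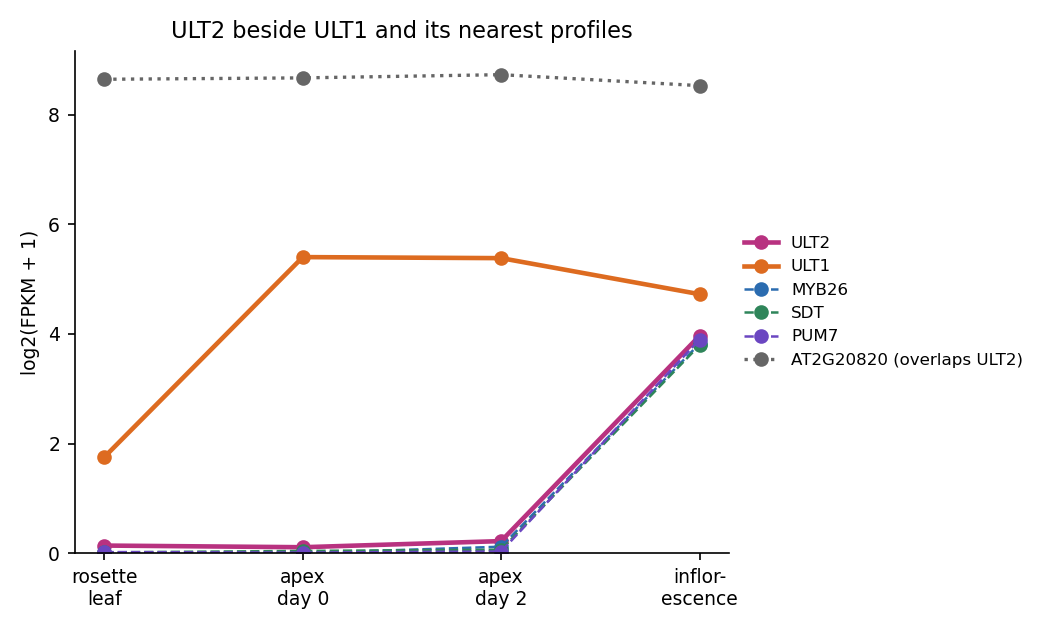
log2(FPKM + 1) of ULT2, ULT1, the 3 named genes with the profiles nearest to ULT2, and the gene whose annotated span overlaps ULT2, in the 4 groups. ULT2, MYB26, SDT and PUM7 nearly coincide, while AT2G20820 stays between 368 and 423 FPKM.

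The genes with a symbol whose centred profile was nearest to ULT2 over the 4 groups were MYB26, which controls wall thickening in the anther endothecium, SDT, a spermidine acyltransferase, and PUM7, a Pumilio-type RNA-binding protein. MYB26 was listed at 0 in leaves and at day 0 and stood at 0.0853 FPKM at day 2 and 13.1 FPKM in inflorescences, at a root mean square difference of 0.02 from ULT2. SDT and PUM7 stood at 12.8 and 13.9 FPKM in inflorescences and below 0.1 FPKM elsewhere. In all, 142 of the 22289 genes lay within 0.2 of ULT2, so these 3 are examples of a common profile. Nearest to ULT1 were the cell cycle regulator UVI4-LIKE, the B-type cyclin CYCB2;2 and the tubulin gene TUB3. CYCB2;2 stood at 0.839, 20.4, 21.4 and 14.4 FPKM across leaves, day 0, day 2 and inflorescences, and 127 genes lay within 0.2 of ULT1. Around CLF, MSI1 and ATX1 profiles were crowded, with 1500, 1612 and 1315 genes within 0.2. Among their nearest named genes were BTF3 and HMT2 for CLF, and DPB (a partner of E2F factors), NRPB12 (an RNA polymerase subunit) and ROPGEF14 for MSI1. For ATX1 the nearest were NUP155 (a nucleoporin), AT3G51800 (under the reference symbol ATG2) and PGY1.

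In the annotation of assembly TAIR10.1, 5 of the 10 genes (CLF, FIE, MSI1, LHP1 and ULT2) overlap the span of another annotated gene, and whether the authors' counting used strand is not given in the sources used here. The gene overlapping ULT2, AT2G20820, stood at 399, 406, 423 and 368 FPKM across leaves, day 0, day 2 and inflorescences. Its level was lowest in the group where ULT2 was highest. The genes overlapping CLF stood at 9.92, 18.6, 23.1 and 17.8 FPKM (AT2G23370) and at 55.2, 28.0, 27.3 and 29.5 FPKM (AT2G23390), the latter highest in leaves, where CLF was lowest. FHIT, which overlaps MSI1, stood at 50.2, 80.4, 82.4 and 69.0 FPKM, in the same order of groups as MSI1. Reads of overlapping genes may have been divided between them, and this was not tested.

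The first comparison asks whether the machinery differed 2 days after APETALA1 activation. None of the 10 genes was called between day 2 and day 0, against 2.46% of all genes compared. Without ULT2, whose FPKM were near 0 at both times, the 9 differences ran from -0.17 (ATX1, 9.27 against 10.5 FPKM) to 0.12 (MSI1, 80.9 against 74.2 FPKM). The median absolute difference of the 15355 genes with at least 5 FPKM in either group was also 0.12, and ATX1 alone among the 9 exceeded it. Differences of EMF2, LHP1 and ULT1 were negative but no larger than 0.02, and they turned positive when groups were rescaled to equal upper quartiles, median ratios or sums, so no direction is given for them. Of all 22289 genes compared, 182 were called higher at day 2 and 366 lower. Among textbook targets of PRC2 in the same samples, 4 of 17 measured genes were called higher and none lower at day 2. They were the floral organ identity genes AP3, PI, AG and SEP3, of which AG went from 0.849 to 16.9 FPKM. These 4 are also the flower markers summed above, so their rise repeats that tissue check. CLF, which represses AG, stood at 17.1 against 17.9 FPKM and ULT1, which activates it, at 40.7 against 41.2 FPKM.

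**Figure D4:**
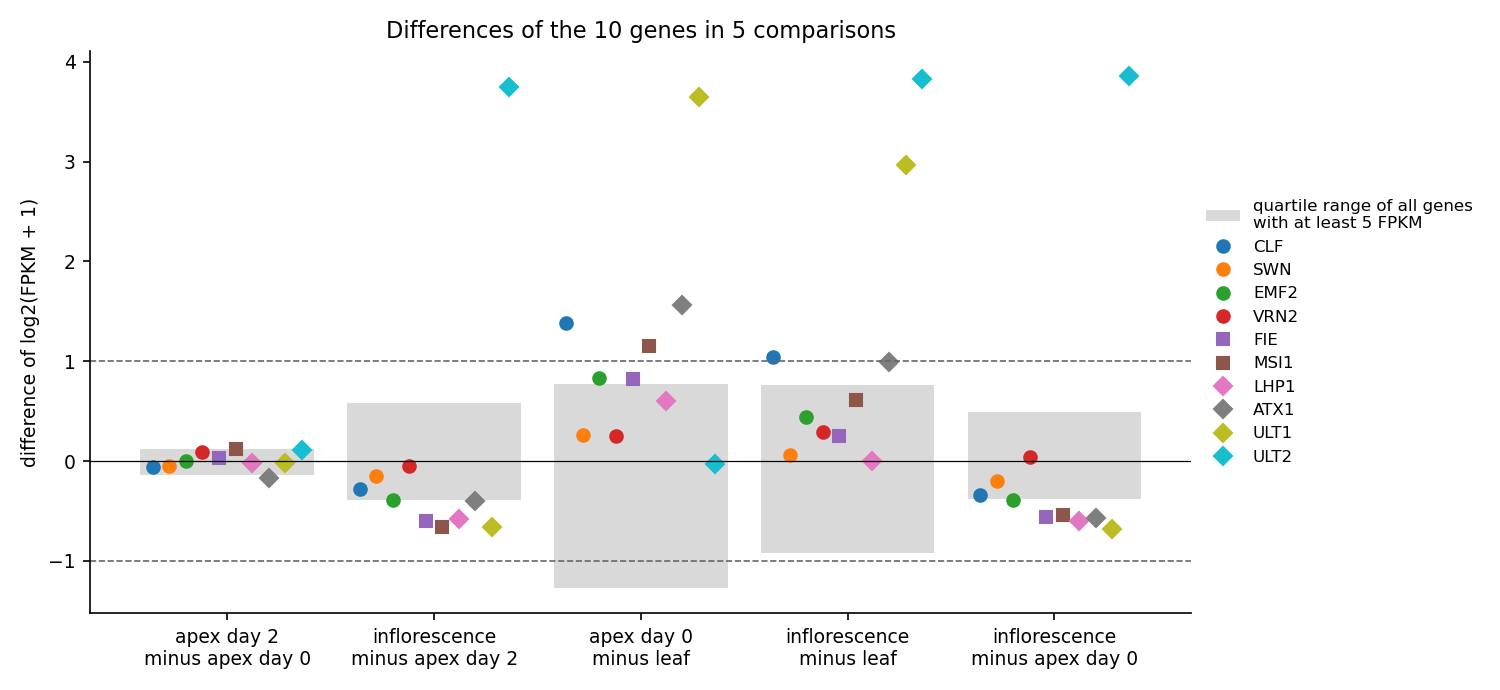
Difference of log2(FPKM + 1) of the 10 genes in 5 comparisons, with dashed lines at the size needed for a call and grey bands from the lower to the upper quartile of all genes with at least 5 FPKM in either group. Apart from ULT2, the genes lie at or above 0.25 in day-0 apices against leaves and at or below -0.04 in inflorescences against day-2 apices.

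Day-0 apices against leaves gave the most calls, in tissues that also differ in genotype. CLF, MSI1, ATX1 and ULT1 were called higher in day-0 apices and none of the 10 lower, that is 4 of 10 genes. Of all genes 16.3% were called higher and 23% lower. Among the 17271 genes with at least 5 FPKM in either group, which a call requires, 21.0% were higher and 29.6% lower. The differences were 1.38 for CLF (2.86-fold), 1.15 for MSI1 (2.26-fold), 1.56 for ATX1 (3.63-fold) and 3.65 for ULT1 (17.4-fold). EMF2 at 0.84, FIE at 0.82, LHP1 at 0.60, SWN at 0.26 and VRN2 at 0.25 were not called, and ULT2 was near 0 in both groups. The median difference of the 10 was 0.83, against -0.07 for all genes compared, of which 44.9% had a difference above 0. Scaling matters here, since 41.5% of all calls were on the higher side as deposited, 53.9% after upper quartile rescaling and 59.3% after rescaling to equal sums. EMF2 and FIE were called as well after upper quartile rescaling, with EMF2 at 1.17 and FIE at 1.15. ATX1, low in leaves, was not called with a pseudocount of 5 (0.97).

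In inflorescences against leaves, both wild type, CLF, ULT1 and ULT2 were called higher and none of the 10 lower. Of all genes 17.1% were higher and 18.9% lower, and of those with at least 5 FPKM in either group 21.0% and 23.2%. CLF stood at 13.9 against 6.25 FPKM, just past the size for a call (1.04), and ATX1, at 6.80 against 2.90 FPKM, just short of it. CLF was not called with a pseudocount of 5 (0.75). ULT1 was 10.7-fold higher, at 25.4 against 2.37 FPKM, and ULT2 145-fold higher, at 14.6 against 0.101 FPKM. MSI1 at 50.7 against 32.8 FPKM, EMF2 at 20.0 against 14.5 FPKM and FIE at 18.8 against 15.6 FPKM were not called. As deposited, SWN was nearly level at a difference of 0.06, and LHP1 stood at 22.3 FPKM in both groups. After upper quartile rescaling SWN was at 0.37 and LHP1 at 0.31, and with equal sums at 0.51 and 0.45. The sign of LHP1 turned under each rescaling. The share of all calls on the higher side was 47.5% as deposited, 60.4% after upper quartile rescaling and 65.7% with equal sums.

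Against both groups of apices, inflorescences had lower values for most of the 10 genes, short of a call, while ULT2 was called higher. ULT2 was the single gene of the 10 called higher in inflorescences than at day 2, where 13.9% of all genes were higher and 4.22% lower. Its difference was 3.74, and ran from 1.92 with a pseudocount of 5 to 5.79 with one of 0.1. The other 9 genes all had values below 0, under each rescaling as well, from -0.04 (VRN2) to -0.66 (MSI1, and ULT1 likewise). The median of the 10 was -0.40 and that of all genes 0.06, and 53.7% of all genes were above 0. Among the 17221 genes with at least 5 FPKM in either group, the median was -0.03 and 48.1% were above 0. Under the rescalings the median of all genes ran from -0.02 to 0.02. Against day 0 the picture was the same, with ULT2 called higher by 3.85 and none of the 10 lower, where 12.5% of all genes were higher and 3.97% lower. VRN2 stood at 17.7 against 17.2 FPKM there, a difference of 0.04 that turned negative after median ratio rescaling, and the other 8 had values below 0. These comparisons share the inflorescence values, and genotype, stage and tissue differ together in each.

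The rest of the Polycomb and Trithorax machinery was described with 11 lists, in which 56 genes besides the 10 were measured. None of these 56 was called between day 2 and day 0, where 2.46% of all genes were called. At that share few calls would fall among 56 genes. In day-0 apices against leaves 18 (32.1%) were called higher and 1 (1.79%) lower, beside 16.3% and 23% of all genes. Among all genes with at least 5 FPKM in either group, 21.0% were higher and 29.6% lower. Of the 56, 51 had a difference above 0, as did 44.9% of all genes, and the median was 0.61, beside -0.07 for all genes. In inflorescences against day 2, none was called higher, beside 13.9% of all genes, and 2 (3.57%) were called lower, a share near the 4.22% of all genes. There, 47 of the 56 were below 0, and the median was -0.26. Under the 3 rescalings that median ran from -0.31 to -0.36. Of the 56 genes, 47 were highest in day-0 or day-2 apices and 47 were lowest in leaves, with 43 (76.8%) doing both. Of the 10 genes 9 were highest in apices and 8 of these also lowest in leaves, and of all genes compared 28.7% did both.

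**Figure D5:**
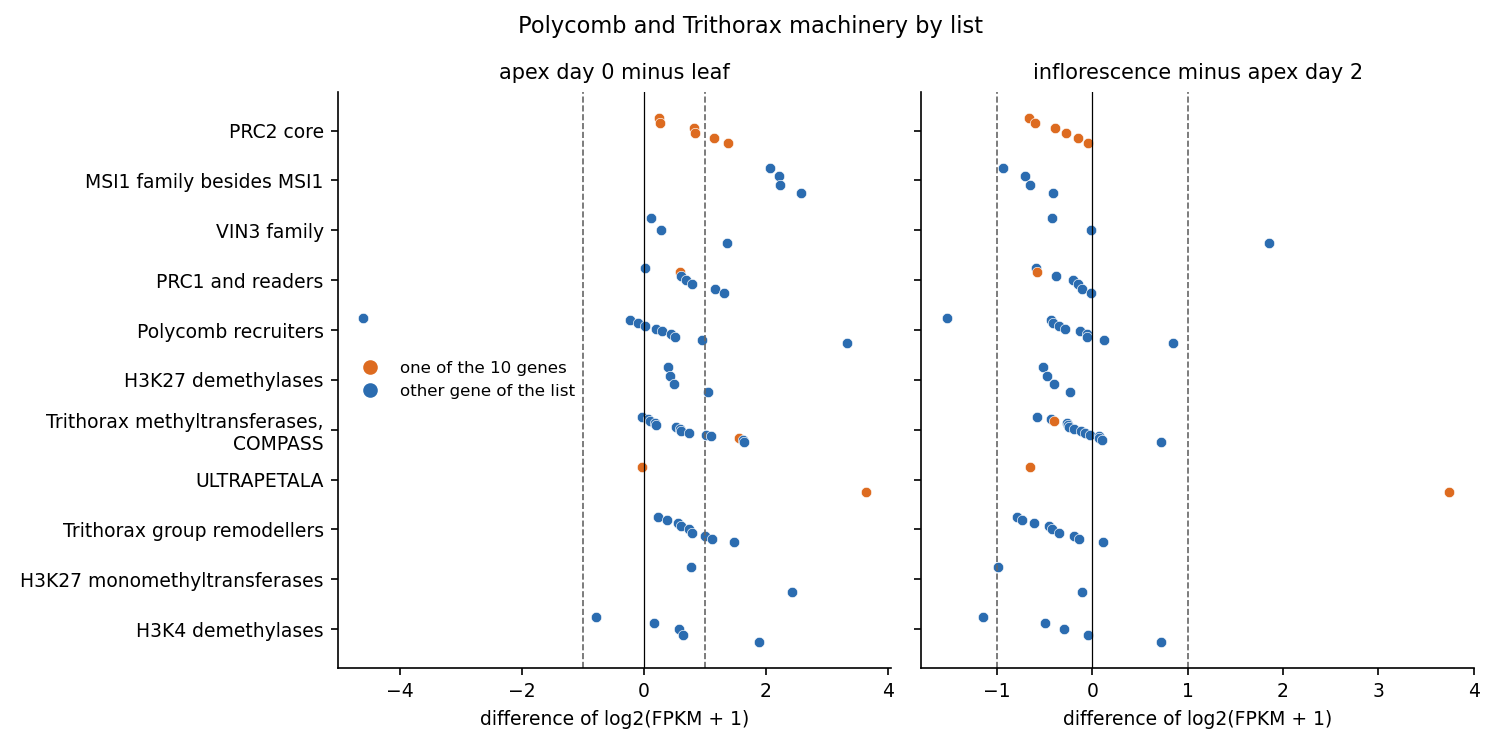
Difference of log2(FPKM + 1) of each measured gene of the 11 machinery lists, for day-0 apices against leaves and for inflorescences against day-2 apices, with dashed lines at the size for a call. All 4 relatives of MSI1 lie above 2 on the left, and ULT2 is the point at 3.74 on the right.

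All 4 relatives of MSI1 were called higher at day 0 than in leaves, beside 16.3% of all genes, with a median difference of 2.23. FVE, a repressor of FLC, stood at 30.1, 146, 156 and 80.9 FPKM across leaves, day 0, day 2 and inflorescences, and MSI2 stood at 10.1, 64.8, 68.3 and 41.4 FPKM. MSI3 and MSI5 stood at 8.20 and 4.35 FPKM in leaves and at 41.6 and 21.4 FPKM at day 0. MSI1 therefore made up 38.3% of the summed level of the family in leaves but 21.3% at day 0. Reads of MSI2 and MSI3, which are closely related copies, may have been divided between them.

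Among PRC1 proteins and readers, 2 of 7 genes were called higher at day 0 than in leaves, beside 16.3% of all genes. RING1A stood at 9.17 against 3.08 FPKM and RING1B at 8.08 against 3.06 FPKM, both E3 ligases for histone H2A. The most abundant of that list was LIF2, an RNA-binding partner of LHP1, at 42.9, 65.6, 59.9 and 53.8 FPKM across leaves, day 0, day 2 and inflorescences. In the VIN3 family VRN5 was called higher, at 26.0 against 9.48 FPKM, and VEL1 was most abundant and stood between 45.7 and 49.7 FPKM in all groups. VIN3, which is induced by cold, stood at 3.75 FPKM in inflorescences and at most 0.318 FPKM elsewhere.

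Of 10 factors reported to recruit Polycomb complexes to DNA, BPC3 was called higher at day 0 than in leaves and AZF1 lower. Of all genes 16.3% were called higher there and 23% lower. BPC3 stood at 0.450, 13.5, 16.7 and 5.15 FPKM across leaves, day 0, day 2 and inflorescences, and it was also called lower in inflorescences than at day 2. AZF1, a zinc finger protein, stood at 38.1 FPKM in leaves and at most 1.2 FPKM elsewhere, in the opposite order of tissues to BPC3. BPC2 had the highest level of that list, at 88.5 FPKM at day 0.

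Among enzymes that remove or place the marks, 1 of 4 H3K27 demethylases was called in day-0 apices against leaves. In that comparison 16.3% of all genes were called higher and 23% lower. REF6 was called higher at day 0, at 17.7 against 8.04 FPKM in leaves, and JMJ30, the most abundant of its list, stood between 68.3 and 115 FPKM. Of the 13 Trithorax methyltransferase and COMPASS genes besides ATX1, SDG4, SDG26, WDR5A and RBL were called higher at day 0 than in leaves. WDR5A, a core COMPASS subunit, stood at 12.5 against 3.37 FPKM, SDG4 at 12.4 against 3.27 FPKM, SDG26 at 26.9 against 12.1 FPKM and RBL at 19.9 against 9.35 FPKM. ATX4 was called only in inflorescences against leaves, at 12.0 against 3.85 FPKM. The H3K27 monomethyltransferase gene ATXR6 stood at 0.788, 8.65, 14.1 and 6.62 FPKM across leaves, day 0, day 2 and inflorescences and was called higher at day 0 than in leaves (2.43). ATXR5 of the same list was highest at 16.1 FPKM at day 0.

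The H3K4 demethylases included the gene nearest to a call between day 2 and day 0. JMJ18 went from 17.4 to 8.22 FPKM, which is just short of a call, and it was called lower with a pseudocount of 0.1 (-1.07). JMJ18 stood at 30.9 FPKM in leaves and 14.2 FPKM in inflorescences and was called lower in inflorescences than in leaves. LDL1 was called higher at day 0 than in leaves, at 18.8 against 4.36 FPKM, and lower in inflorescences, at 8.58 FPKM, than at day 2. JMJ14 had the highest level of these genes, at 40.2 FPKM at day 2, although JMJ18 was above it in leaves. Of 9 chromatin remodelling genes, SWI3A, SWI3B and SWI3D were called higher at day 0 than in leaves, beside 16.3% of all genes. SWI3A stood at 30.1 against 10.2 FPKM, SWI3B at 49.8 against 22.5 FPKM and SWI3D at 29.5 against 14.2 FPKM. SWI3B had the highest level of that list, at 54.4 FPKM at day 2, while BSH, another SWI/SNF subunit, was above it in leaves (27.5 FPKM) and inflorescences (42.1 FPKM). The ATPases BRM and SYD stood at 24.5 and 22.4 FPKM in leaves and at 32.1 and 33.4 FPKM at day 0 and were not called.

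Textbook targets of PRC2 were called in both directions across tissues. In day-0 apices against leaves 5 of the 17 measured targets were called higher and 2 lower, where 16.3% of all genes were higher and 23% lower. STM stood at 195 against 0.159 FPKM, KNAT1 at 103 against 0.236 FPKM and KNAT2 at 44.1 against 0.273 FPKM, all class I KNOX genes of the meristem. WUS, listed at 0 in leaves, stood at 6.91 FPKM, and PI at 20.0 FPKM against 0.123 FPKM. Lower were FT at 0.713 against 41.1 FPKM and AGL19 at 0.964 against 9.56 FPKM, both promoters of flowering. In inflorescences against day 2, 6 targets were called higher and 3 lower, where 13.9% of all genes were higher and 4.22% lower. Among the higher, STK, SHP1, SHP2 and FLC had less than 1 FPKM in leaves, at day 0 and at day 2, as did ULT2. Like ULT2, they passed the filter only through inflorescences, so their calls there were in part fixed by it. In inflorescences STK, SHP1, SHP2 and FLC stood at 32.9, 27.5, 11.4 and 7.31 FPKM. The remaining higher targets were AG, with 58.3 FPKM in inflorescences, and SEP3, with 207 FPKM. The 3 lower ones were STM, KNAT1 and KNAT2, at 41.2, 27.1 and 8.49 FPKM in inflorescences. The list was compiled from general knowledge of PRC2, and no histone mark was measured in these values. AP3, PI, AG and SEP3 are also the flower markers used above. STM and KNAT1 are also among the meristem markers, and STK and SHP1 among the carpel and ovule markers.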

How the data were processed

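RNA-seq values were used as deposited by the authors, in FPKM, with 1 value per gene for each of 4 groups. The file's header names only genes and groups, so the unit rests on the values and on Cufflinks being among the tools. The submitters' processing notes name Cufflinks 2.1.1, TopHat2 2.0.10, Bowtie2 2.1.0, CASAVA 1.8.2 and build TAIR10. What annotation, options, strand setting, merging and scaling were used is not given in the sources used here. Depth is unknown. The table held 34133 rows. Values of 567 identifiers on several rows were summed, and none of the 10 genes was among them. Symbols and neighbours came from RefSeq, assembly TAIR10.1 (32815 identifiers matched). Since that build has another name, no coordinates or sequences are given.

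The members, lists and rule of size were chosen with earlier results of these data known. The rule replaced the limma test foreseen for per-library values. Named were the 10 genes, list genes called in any comparison, the gene with the highest single level of each list and the 3 nearest profiles of each called member, of which 1 is not reported here. Names outside this rule (VIN3, MEA, FIS2, ATX2, BRM, SYD, BSH and the overlapping genes) were chosen after their values were seen. Of 78 machinery identifiers, 7 were dropped because the reference lacks the name used, and 5 more stayed below 1 FPKM. The rule was run on simulated data with an assumed spread and planted changes larger than the size for a call. Since the real spread is unknown, that run does not show how reliable the calls are. Tables were made with Python 3.11.15 and pandas 2.3.3.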

Additional observations from a re-analysis of the deposited data

How the results depend on the processing

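The spread between libraries is unknown and so is the depth, so small differences, such as those between day 2 and day 0, cannot be told from measurement error. No paired analysis was possible because the table gives 1 merged column per group, and for the same reason no replicate could be left out. Of the 10 alternatives, only the 3 rescalings could change the sign of a member difference. Of the 50 member differences, none that was called changed sign under them. Under all 10 alternatives no call was lost except those of ATX1 and CLF with a pseudocount of 5, given above. Signs of differences that were not called turned in 4 or 5 of the 50 under each rescaling. Of the 365 differences of other list genes, none that was called changed sign under the rescalings, and signs of the rest were not counted. Among these, 18 calls were lost with a pseudocount of 5, and 1 each with upper quartile and equal sum rescaling. The median of all genes moved by 0.15 with upper quartile rescaling in day-0 apices against leaves and 0.28 in inflorescences against leaves, and equal sums by 0.27 and 0.42, so more genes were called higher against leaves.

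With equal sums, 7 of the 10 genes were called in day-0 apices against leaves in place of 4, and 5 in inflorescences against leaves in place of 3, while 8993 and 8096 of all 22289 genes were called. A call at 1.5 times gave 7 and 5 of the 10 in these comparisons, where it called 11729 and 11198 of all genes, 4 in inflorescences against day 2 and 3 against day 0, in place of 1 each. Over all genes that size gave 1346 calls between day 2 and day 0 in place of 548, 6836 in place of 4040 in inflorescences against day 2 and 6433 in place of 3680 against day 0. A pseudocount of 5 left 317 of the 548.

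Of the 66 measured machinery genes, members included, JMJ18 was called between day 2 and day 0 with a pseudocount of 0.1 (1 gene in place of 0), and JMJ18 and ATXR6 at 1.5 times (2 genes). In inflorescences against day 2, 3 were called, and 5 after median ratio and after equal sum rescaling, and 16 at 1.5 times. In day-0 apices against leaves, 23 were called, and 15 with a pseudocount of 5, 40 with equal sums and 39 at 1.5 times. In inflorescences against leaves the pseudocount of 5 gave 8 in place of 16. Against day 0, it gave 1 in place of 3, and 1.5 times gave 13. The other alternatives kept these counts within 1.5 times.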

Other observations

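Chromosomal neighbours of the 10 genes, in the order of assembly TAIR10.1, were read beside them. Both genes next to ULT1 were highest in day-0 apices, as ULT1 was. The genes before CLF and EMF2, AT2G23360 and AT5G51220, were likewise highest at day 0, as CLF and EMF2 were. Of all genes compared, 36.3% were highest in day-0 or day-2 apices. AT4G28180 stood at 5.95, 34.9, 34.7 and 16.9 FPKM across leaves, day 0, day 2 and inflorescences, and AT4G28200 at 19.8, 36.9, 34.8 and 24.6 FPKM. Next to ULT2, AT2G20830 stood between 19.3 and 28.2 FPKM in all 4 groups and was highest in leaves. The gene before VRN2, AT4G16840, stood at 18.7 FPKM in leaves and 5.11 FPKM at day 0, whereas VRN2 stood at 14.3 and 17.2 FPKM. These genes were looked up after the values of the 10 were seen, and no comparison was made with neighbours of other genes.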
